A study of Mus musculus with 2 samples.

Results

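The R-spondins *Rspo1*, *Rspo2*, *Rspo3* and *Rspo4* and their receptors *Lgr4*, *Lgr5* and *Lgr6* were followed in single-cell transcriptomes of healing mouse skin. All 7 genes were found by symbol, out of 27998 genes in the count tables. Dermal cells had been sorted for the red fluorescent protein Tomato from wounds of 4 to 5 week old mice, 3 days after complete re-epithelialization, with doxycycline at 20 g/kg from day 1 after wounding. The control library came from SM22rtTA; tetO-Cre; R26-Tomato mice and the *SM22-SmoM2* library from SM22rtTA; tetO-Cre; R26-SmoM2/Tomato mice, with 1 library per genotype. The rtTA of both genotypes is under the *SM22α* (*Tagln*) promoter, so that doxycycline switches on Cre and with it Tomato. SmoM2, which Cre switches on as well in *SM22-SmoM2* mice, is an always active variant of Smoothened, the transducer of Hedgehog (Hh) signals. Each library pooled wounds of several mice, and the sort left out cells in which the *SM22α* promoter had not been active.

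R-spondins are secreted proteins that strengthen Wnt signaling. They bind an Lgr receptor together with Znrf3 or Rnf43, a pair of membrane-bound E3 ubiquitin ligases that take Frizzled, the Wnt receptor, off the cell surface, and the ligase is then cleared instead. In skin, R-spondins are known from the dermal papilla (DP), the mesenchymal cluster at the base of the hair follicle, while *Lgr5* and *Lgr6* are known as stem cell markers of the follicle epithelium.

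Promoters are given first, as the 250 bases before the annotated start of *Lgr4* (chr2:109917397-109917646, plus strand) and *Rspo1* (chr4:124986180-124986429, plus strand). Both genes were past 2-fold between the fibroblasts of the libraries, as was *Rspo3*, for which no promoter sequence was available. The sequences are from RefSeq on GRCm38.p6, where 4 of the 7 members had an entry (*Rspo1*, *Rspo4*, *Lgr4* and *Lgr6*). Capitals mark CCAAT boxes, the letters bound by the factor NF-Y.
Lgr4: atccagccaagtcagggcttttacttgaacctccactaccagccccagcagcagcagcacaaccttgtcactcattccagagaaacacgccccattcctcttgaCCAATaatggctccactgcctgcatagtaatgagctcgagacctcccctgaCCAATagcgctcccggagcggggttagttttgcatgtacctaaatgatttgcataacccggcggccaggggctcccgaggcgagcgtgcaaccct
Rspo1: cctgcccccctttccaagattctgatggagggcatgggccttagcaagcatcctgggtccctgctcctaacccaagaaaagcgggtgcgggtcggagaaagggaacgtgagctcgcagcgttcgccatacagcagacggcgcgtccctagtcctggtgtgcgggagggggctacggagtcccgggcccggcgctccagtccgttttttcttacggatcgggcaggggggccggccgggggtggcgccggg
The *Lgr4* window held 2 CCAAT boxes, and 33.8% of all 32851 windows of this length held at least 1. The GLI motif GACCACCCA (0.225% of windows), its shorter core CCACCCA (8.11%), which lies within it, and the TCF/LEF motif CTTTGA (13.8%) were searched on both strands and matched in 0 of the 4 member windows. The *Rspo1* window matched no motif searched, including CCAAT, the GC box GGGCGG (32.7% of windows) and TATAAA (12.4%).

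By the GRCm38 annotation, *Rspo1* (ENSMUSG00000028871) lies on chromosome 4 from 124986430 to 125009099 on the plus strand. *Rspo3* (ENSMUSG00000019880) lies on chromosome 10 from 29452416 to 29535867 on the minus strand. *Lgr4* (ENSMUSG00000050199) lies on chromosome 2 from 109917647 to 110014257 on the plus strand and is overlapped by no other annotated gene. *Lgr5* (ENSMUSG00000020140) lies on chromosome 10 from 115450311 to 115587780 on the minus strand. *Rspo1*, *Rspo3*, *Rspo4* and *Lgr5* are each overlapped by a gene on the opposite strand, and *Rspo3* also by *Gm20276* on its own strand. The strand setting of the counting is not given in the sources used here. The remaining members were *Rspo2* on chromosome 15, *Rspo4* on chromosome 2 and *Lgr6* on chromosome 1.

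After filtering, 2856 control cells and 1792 *SM22-SmoM2* cells remained, with 30103855 and 17814222 transcript molecules (UMIs, unique molecular identifiers) and medians of 8607.5 and 8837.5 UMIs per cell. Clusters were named from marker genes, and fibroblasts made up 1091 control cells and 1097 *SM22-SmoM2* cells, with medians of 12471 and 10941 UMIs. All 8 fibroblast markers were present in them in both libraries, and the 7 Schwann and 6 endothelial markers in the clusters of those names. Cells named muscle held 6 of the 7 muscle markers at 10 CPM or more in both libraries. That list includes *Rgs5*, a mural cell gene, and mural cells were not told apart from other muscle cells. The list of T cell and myeloid markers for immune cells held *Cd3e* at 0 in both libraries. Barcodes with RNA of both a male and a female mouse, by *Xist* together with Y-linked UMIs, were 5.01% of control and 2.51% of *SM22-SmoM2* cells. Cells called male and female were 1454 and 729 for control, and 1134 and 244 for *SM22-SmoM2*. The comparison of libraries thus also sets unlike shares of the sexes against each other. No column of counts was identical between the libraries, and cell barcodes shared between them could not be counted. *Ptch1*, an Hh target gene, had 12.2 CPM (UMIs of the gene per 1000000 UMIs of the class) in control fibroblasts and 147 CPM in *SM22-SmoM2* fibroblasts, a log2 ratio of 3.59 (3.37 to 3.83). Each genotype has 1 library, so the differences have no replicate check and were not tested. The ranges in parentheses are 95% intervals for counting error alone, and variation among mice or libraries is not in them.

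The members were first summed by lineage and library. Fibroblasts held 46.9% of all UMIs of the control library and 70.0% of those of the *SM22-SmoM2* library, and the members' shares are to be read against these. The R-spondins were largely fibroblast transcripts in this sort. Of all *Rspo1* UMIs, fibroblasts held 97.4% (37 of 38) for control and 96.3% (129 of 134) for *SM22-SmoM2*, and *Rspo1* had 0 UMIs in Schwann and endothelial cells of both. For *Rspo3* these shares were 76.9% (60 of 78 UMIs) and 94.7% (320 of 338 UMIs). Endothelial cells held 15 of the control *Rspo3* UMIs and 2 of the *SM22-SmoM2* UMIs.

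The receptors spread differently over the lineages. *Lgr5* was mostly in fibroblasts, with 87.9% of its UMIs in the control and 97.0% in the *SM22-SmoM2* library. *Lgr4* was broader, with 52.8% and 86.8% of its UMIs in fibroblasts, nearer to the shares of all transcripts. In Schwann cells *Lgr4* had 30.7 CPM (25.9 to 36.2; 145 UMIs) for control and 40.1 CPM (31.9 to 49.9; 81 UMIs) for *SM22-SmoM2*, and the log2 ratio was 0.38 (-0.03 to 0.79), with an interval that includes 0. Endothelial cells had 2.93 CPM (24 UMIs) and 7.99 CPM (19 UMIs), a log2 ratio of 1.45 (0.50 to 2.38). Immune cells had 3 and 8 *Lgr4* UMIs, a log2 ratio of 2.35 (0.29 to 4.90). *Lgr4* was thus higher beyond counting error in endothelial and immune cells of the *SM22-SmoM2* library too, on few UMIs. The 8 immune UMIs lay in 3 of 33 cells, 4 of them in 1 cell. These immune cells also held all 8 fibroblast markers at 10 CPM or more. Endothelial cells held 6 of the 8 for control and 5 for *SM22-SmoM2*. Carry-over of fibroblast RNA was not tested in either lineage. In muscle cells *Lgr4* had 20.8 CPM (39 UMIs) and 9.07 CPM (5 UMIs). *Lgr6* was the member found mainly in Schwann cells, with 17 of 21 control UMIs and 9 of 12 *SM22-SmoM2* UMIs there, at 3.60 and 4.46 CPM.

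**Figure D1:**
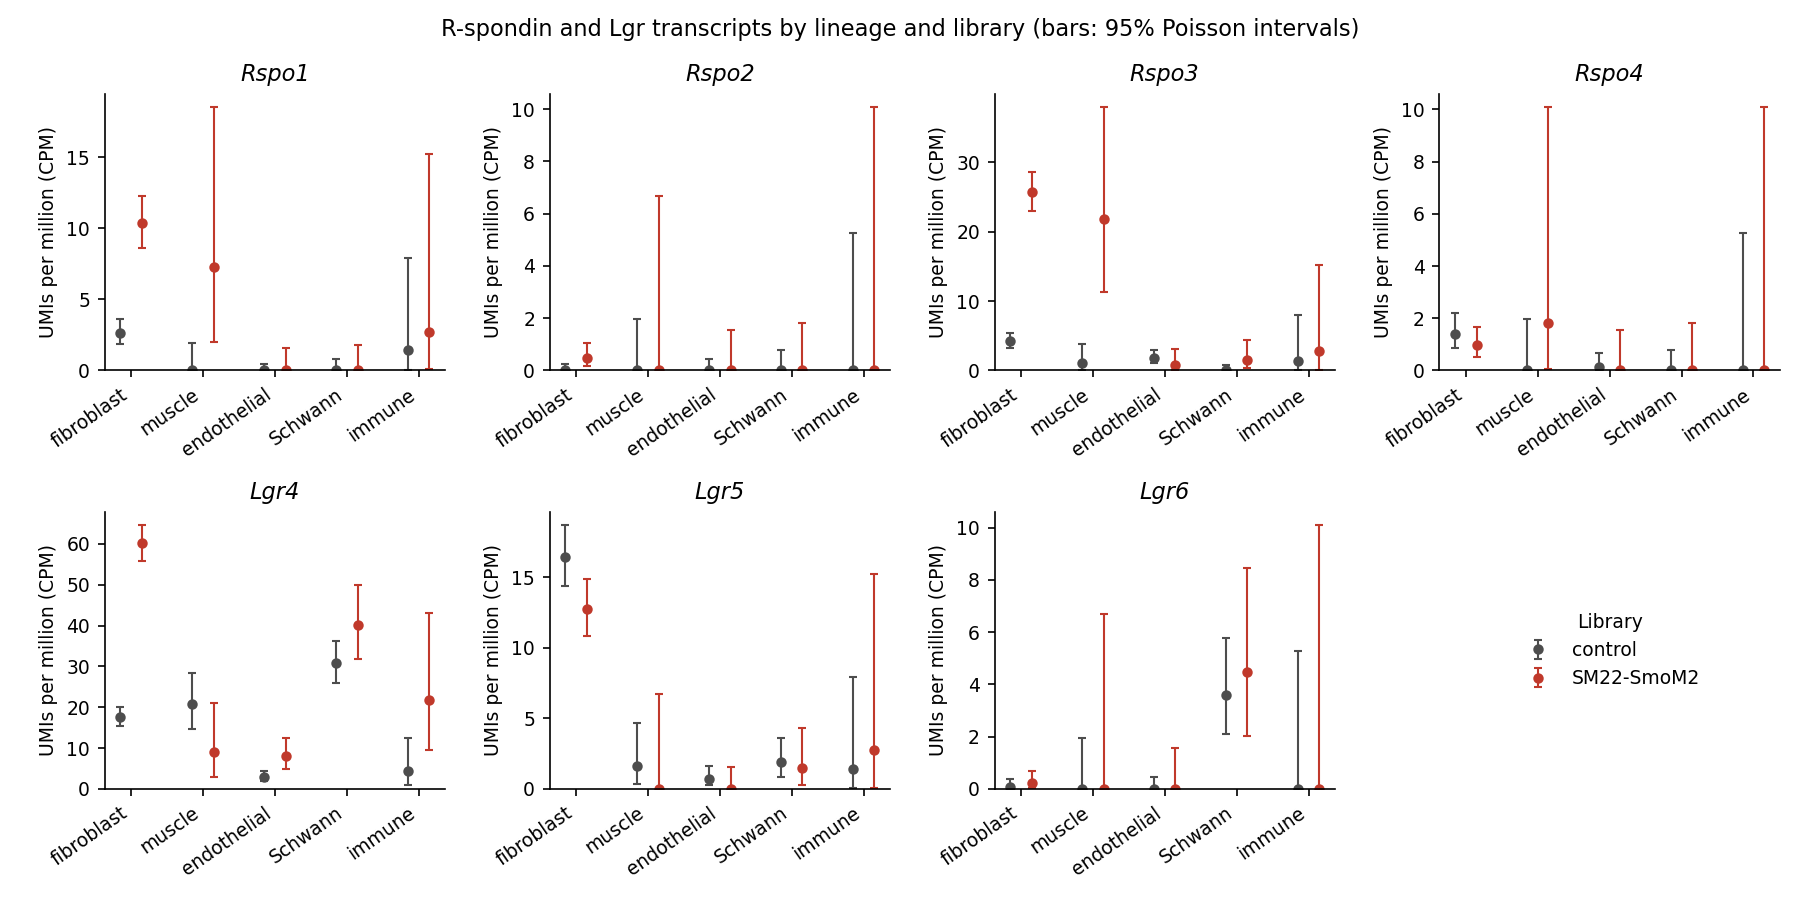
Levels in CPM of each member in 5 lineages, control library in grey and SM22-SmoM2 library in red, with 95% Poisson intervals as bars; the vertical axes are linear, start at 0 and differ between panels. In fibroblasts Rspo1, Rspo3 and Lgr4 lie above control in SM22-SmoM2 and their intervals do not overlap, and Lgr6 is found mainly in Schwann cells; keratinocytes are left out because they are 15 and 1 cells.

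Ligands were then compared between the fibroblasts of both libraries. *Rspo1* had 37 UMIs in 22 control cells, 2.62 CPM (1.84 to 3.61), and 129 UMIs in 42 *SM22-SmoM2* cells, 10.4 CPM (8.64 to 12.3). *Rspo3* had 60 UMIs in 51 control cells, 4.25 CPM (3.24 to 5.47), and 320 UMIs in 129 *SM22-SmoM2* cells, 25.7 CPM (22.9 to 28.7). Both ligands were thus higher in the *SM22-SmoM2* library, with log2 ratios of 1.98 (1.45 to 2.55) for *Rspo1* and 2.60 (2.19 to 3.02) for *Rspo3*. *Rspo2* had 0 UMIs in control fibroblasts and 6 UMIs in 3 *SM22-SmoM2* cells, 3 of them in 1 cell. With the control count set at a floor of 3 UMIs for the whole class, *Rspo2* was 2.27-fold higher. The lower limit of its log2 ratio for counting error was 0.42. *Rspo4* had 20 UMIs in 20 control cells and 12 UMIs in 10 *SM22-SmoM2* cells, a log2 ratio of -0.56 (-1.72 to 0.55). *Rspo4* thus did not differ beyond counting error.

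Among the receptors, *Lgr4* was higher and *Lgr5* slightly lower in *SM22-SmoM2* fibroblasts. *Lgr4* had 249 UMIs in 201 control cells, 17.6 CPM (15.5 to 20.0), and 750 UMIs in 389 *SM22-SmoM2* cells, 60.2 CPM (56.0 to 64.6). The log2 ratio was 1.77 (1.56 to 1.98). *Lgr5* had 232 UMIs in 124 control cells, 16.4 CPM (14.4 to 18.7), and 159 UMIs in 106 *SM22-SmoM2* cells, 12.8 CPM (10.9 to 14.9). Its log2 ratio of -0.36 (-0.66 to -0.07) was small, and the interval lay below 0 in 7 of the 12 alternatives that give one. It was 0.011 in cells called male and -0.97 in cells called female. *Lgr6* had 1 and 3 UMIs in fibroblasts, too few for a ratio.

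Of the 7 members, 4 had at least 50 UMIs over both groups, the minimum for counting a gene as past 2-fold. *Lgr4*, *Rspo1* and *Rspo3* were 2-fold or more higher, against 5.02% of 11524 genes in that direction, and 0 members were 2-fold or more lower, against 4.91%. The median log2 ratio over these genes was -0.06. The count of UMIs is over both groups, so a gene that is high in 1 group passes it more readily.

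Shares of cells with a UMI moved the same way at equal depth. With each cell thinned at random to 2500 UMIs, *Lgr4* was found in 4.95% of control and 14.3% of *SM22-SmoM2* fibroblasts, and without thinning in 18.4% and 35.5%. Endothelial cells, with low *Lgr4*, gave shares of 0.285% and 1.11% at the same depth, with medians of 9435 and 7262.5 UMIs before thinning. For *Rspo3* the thinned shares were 1.28% and 4.38% of fibroblasts (4.67% and 11.8% without thinning) and for *Rspo1* 0.642% and 2.19% (2.02% and 3.83%). In Schwann cells *Rspo1* was at 0 of 678 and 0 of 294 cells. *Lgr5* was at 4.03% and 3.46% of fibroblasts at equal depth, and at 11.4% and 9.66% without thinning.

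**Figure D2:**
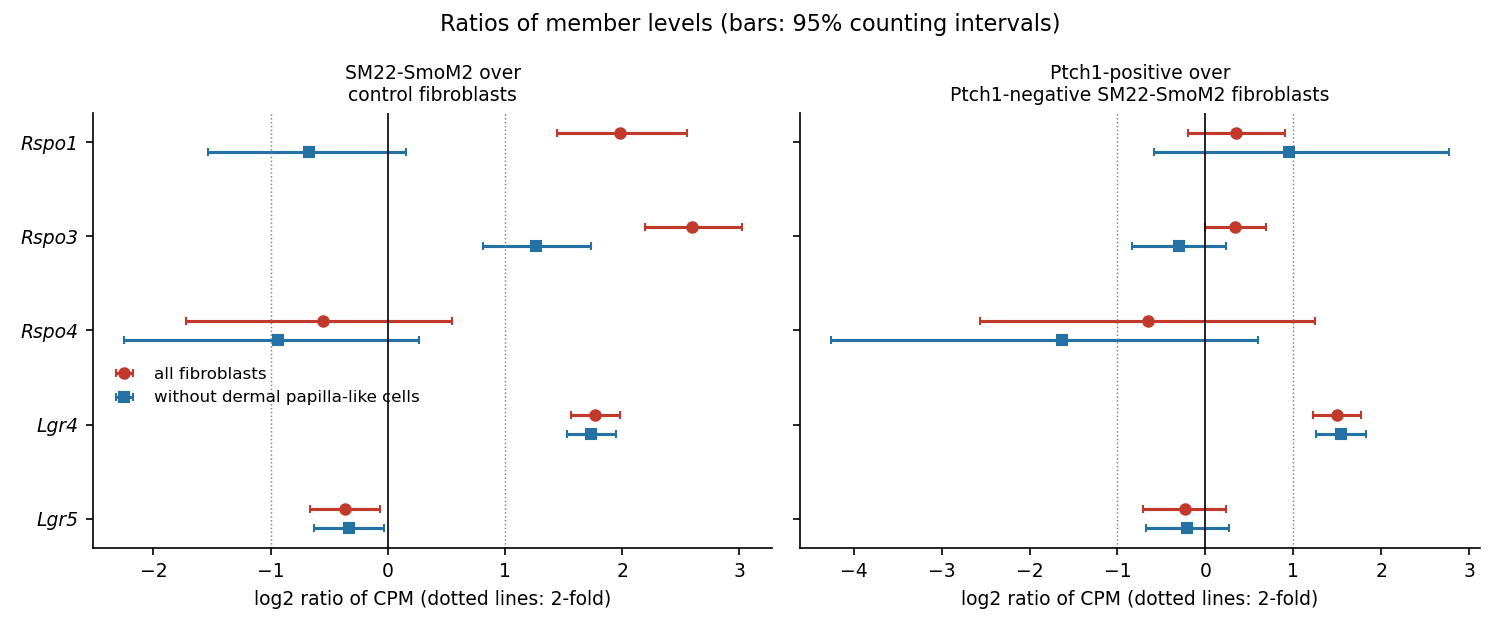
Log2 ratios of CPM for 5 members in SM22-SmoM2 over control fibroblasts (left) and in Ptch1-positive over Ptch1-negative SM22-SmoM2 fibroblasts (right), for all fibroblasts (red circles) and without dermal papilla-like cells (blue squares), with 95% counting intervals as bars and dotted lines at 2-fold. Lgr4 keeps its ratio without these cells in both comparisons, while Rspo1 moves from 1.98 to -0.67 on the left.

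To see which fibroblasts carried the transcripts, fibroblasts were clustered again without the members, the other Wnt pathway genes, the Hh genes and the DP genes. Of the 15 sub-clusters, 2 small ones led by muscle or immune genes were left out as mixed cells. Sub-cluster 13 was called dermal papilla-like because all 17 genes of a DP list were raised in it, *Alpl*, *Lef1*, *Corin* and *Sox18* among them. It held 47 *SM22-SmoM2* cells and 0 of 1091 control cells, which allows a share of up to 0.275%. Its median of 4636 UMIs per cell was below the fibroblast median of its library. Since the cells were of 1 library, the sub-cluster and the library cannot be told apart.

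Most R-spondin transcripts of the *SM22-SmoM2* library lay in these 47 cells, 4.28% of its fibroblasts. They held 109 of 129 *Rspo1* UMIs (84.5%, 77.1 to 90.3) and 196 of 320 *Rspo3* UMIs (61.3%, 55.7 to 66.6). The *Rspo1* level was 353 CPM (289.6 to 425) there and 1.65 CPM (20 UMIs) in the other *SM22-SmoM2* fibroblasts. *Rspo3* had 634 CPM (548 to 729) there and 10.2 CPM (124 UMIs) in the others. The rarer ligands lay partly in the same cells, with 4 of 6 *Rspo2* UMIs and 3 of 12 *Rspo4* UMIs.

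Of the 47 cells, 27 had *Rspo1* UMIs, 35 had *Rspo3* UMIs, 21 had both and 6 had neither. Both were found in 3 of the 1050 other *SM22-SmoM2* fibroblasts and in 0 of the 1091 control fibroblasts. Thinned to 2500 UMIs, *Rspo1* was found in 48.9% and *Rspo3* in 59.6% of these cells, against 0.0952% and 1.90% of the other *SM22-SmoM2* fibroblasts. The receptors differed from each other here. *Lgr4* had 36 UMIs in 18 of these cells, 116.5 CPM (81.6 to 161), against 58.8 CPM in the other *SM22-SmoM2* fibroblasts, while *Lgr5* and *Lgr6* had 0 UMIs. At this depth a count of 0 has an upper Poisson limit of 11.9 CPM, which is below the 13.1 CPM of *Lgr5* in the others together. *SM22-SmoM2* cells of sub-clusters 4, 6, 7 and 9 had 6.93, 8.96, 10.0 and 8.32 CPM of *Lgr5*, below that limit. The count of 0 thus does not set the dermal papilla-like cells apart from these. Sub-clusters 1, 2, 5 and 8 lay above it, at 32.1, 12.5, 19.9 and 15.8 CPM.

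Without the dermal papilla-like cells the 2 ligands parted. *Rspo1* then had 1.65 CPM in *SM22-SmoM2* and 2.62 CPM in control fibroblasts, a log2 ratio of -0.67 (-1.53 to 0.15), so that the higher *Rspo1* of the library was no longer seen. Of the 37 control UMIs, 11 lay in 1 cell, and without that cell the control level was 1.84 CPM. *Rspo3* remained higher, at 10.2 and 4.25 CPM, with a log2 ratio of 1.26 (0.81 to 1.73). *Lgr4* was nearly the same as before at 58.8 and 17.6 CPM, with a log2 ratio of 1.74 (1.53 to 1.95). In this comparison *Lgr4* and *Rspo3* were past 2-fold higher, against 4.61% of 11470 genes, and 0 members were past 2-fold lower, against 5.07%.

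*Lgr4* was highest in another sub-cluster. In sub-cluster 4, led by *Sfrp5*, a secreted Wnt antagonist, and *Cldn1*, a tight junction gene, *Lgr4* had 149 CPM (133 to 166; 322 UMIs) in 182 *SM22-SmoM2* cells and 53.4 CPM (32.2 to 83.4; 19 UMIs) in 37 control cells. These cells were 16.6% of *SM22-SmoM2* fibroblasts and held 42.9% of their *Lgr4* UMIs. Sub-clusters 5 and 6, almost wholly of *SM22-SmoM2* cells, had 79.0 and 61.8 CPM. Sub-cluster 7, with 165 *SM22-SmoM2* cells and 0 control cells, had 16.9 CPM, close to the control fibroblast level, although 66.7% of its cells had *Ptch1* UMIs.

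Sub-cluster 4 held all 8 fibroblast markers, *Col1a1* at 12646 CPM among them, and 1 raised endothelial marker. This was *Cdh5*, VE-cadherin, at 98.0 CPM against 9.14 CPM in the other fibroblasts and 635 CPM in endothelial cells. The 5 other endothelial markers had between 2.38 and 15.5 CPM there, against 156 to 948 CPM in endothelial cells. With at most 5% mitochondrial UMIs allowed, or with K = 12 in place of 20 in the clustering, most cells of this sub-cluster were left out as mixed with endothelial cells, and only 13 remained as fibroblasts in each case. The *Lgr4* log2 ratio between libraries was then 1.36 and 1.37, and it was 1.32 (1.08 to 1.55) when sub-cluster 4 alone was left out.

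*Lgr5* had its own distribution. It was high in sub-cluster 1, led by *Crabp1*, *Mmp11* and *Prss35*, with 31.1 CPM (102 UMIs) in control and 32.1 CPM (29 UMIs) in *SM22-SmoM2* cells. In sub-cluster 2, led by *Mmp3*, *Ctla2a* and *Wisp2*, it had 39.5 CPM (102 UMIs) in control and 12.5 CPM (16 UMIs) in *SM22-SmoM2* cells, a log2 ratio of -1.66 (-2.52 to -0.90). These 2 sub-clusters each held 44.0% of the control *Lgr5* UMIs. Sub-cluster 3, with 272 control cells, had 2.40 CPM, and sub-clusters 10 and 11 had 0 UMIs in 80 and 60 control cells.

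**Figure D3:**
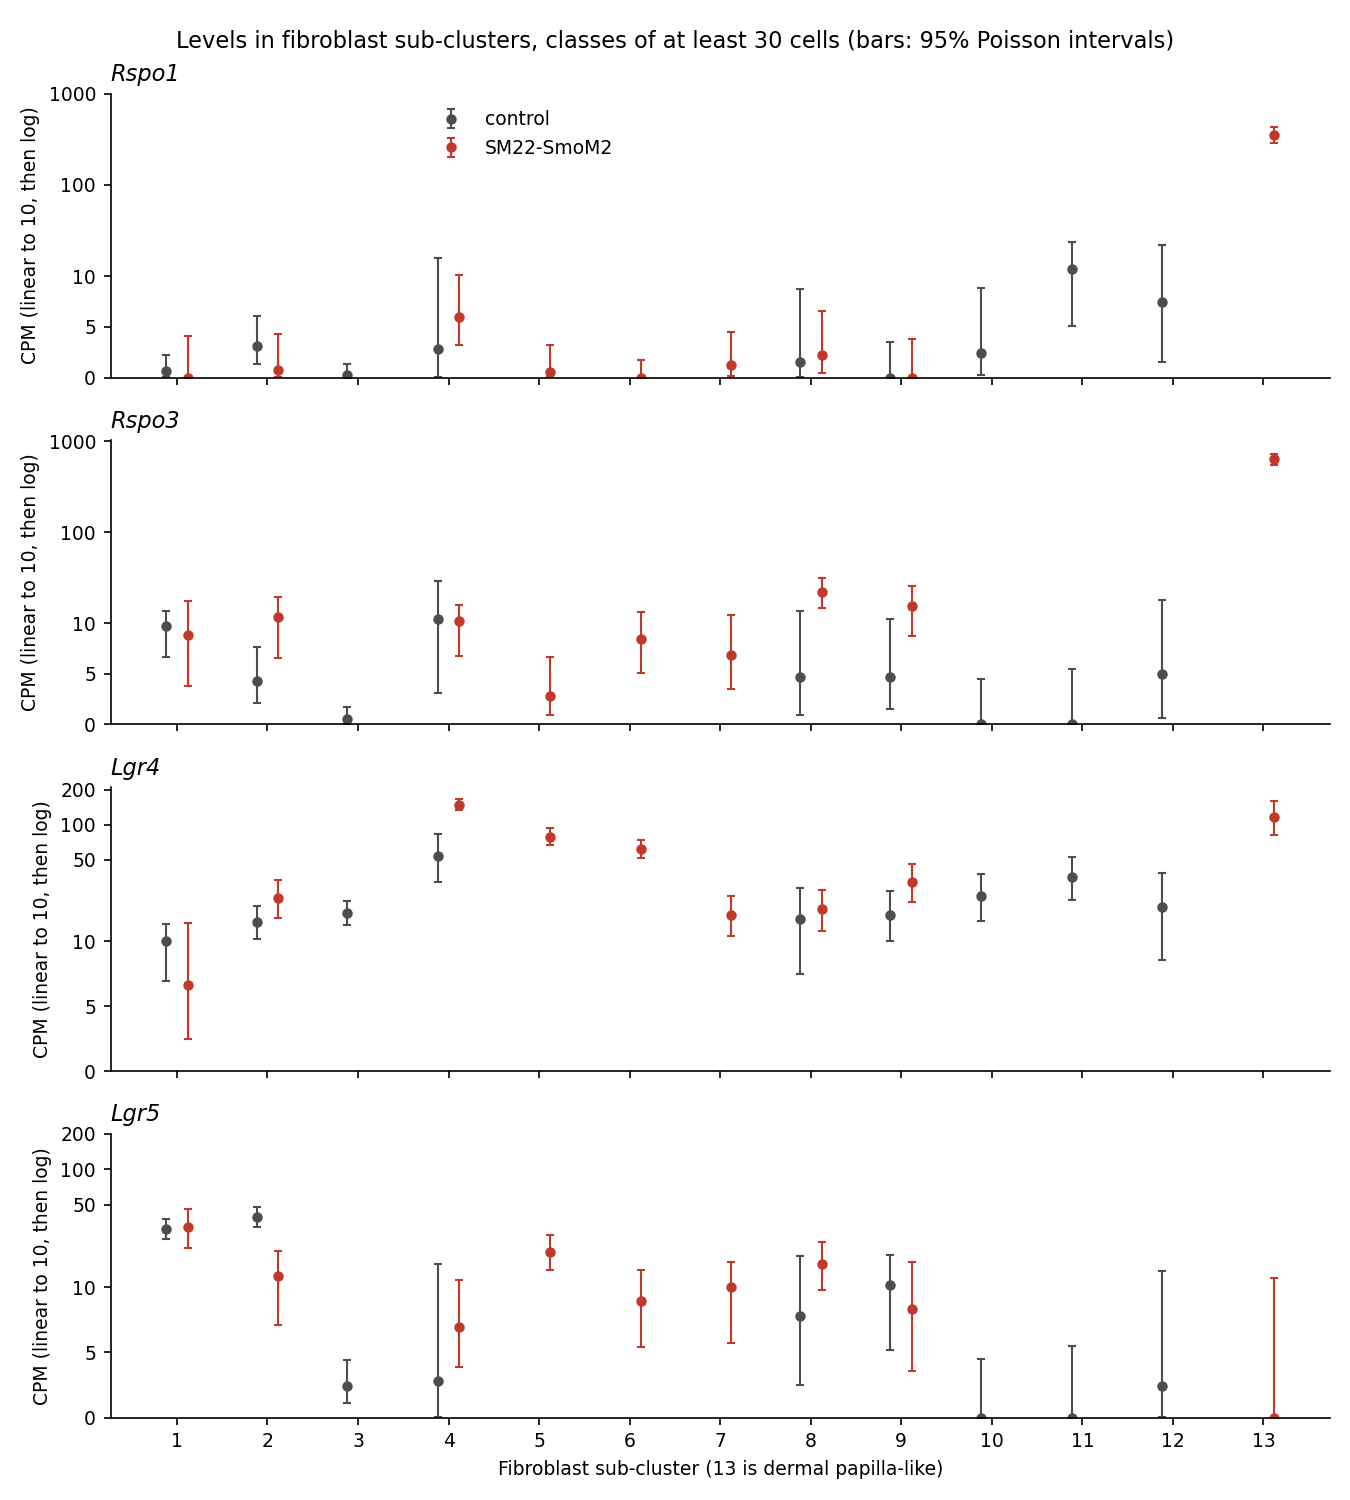
Levels of Rspo1, Rspo3, Lgr4 and Lgr5 in 13 fibroblast sub-clusters, control in grey and SM22-SmoM2 in red, for classes of at least 30 cells, with 95% Poisson intervals; the vertical axis is linear up to 10 CPM and logarithmic above. Rspo1 and Rspo3 stand at 353 and 634 CPM in sub-cluster 13, Lgr4 is highest in sub-cluster 4, and Lgr5 in sub-clusters 1 and 2.

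Within single sub-clusters the differences between libraries were uneven. For *Lgr4* the log2 ratio was 1.48 (0.81 to 2.23) in sub-cluster 4 and 0.93 (0.04 to 1.85) in the cycling sub-cluster 9, led by *Ube2c*, *Ccnb1* and *Cdc20*. It was 0.67 (-0.07 to 1.40) in sub-cluster 2, 0.27 (-0.84 to 1.49) in sub-cluster 8 and -0.60 (-2.14 to 0.67) in sub-cluster 1. For *Rspo3* it was 1.46 (0.24 to 2.72) in sub-cluster 2, 2.22 (0.53 to 4.58) in sub-cluster 8 and 1.73 (0.19 to 3.54) in sub-cluster 9. In sub-clusters 1 and 4 *Rspo3* had -0.14 and -0.08. Combined over the 5 sub-clusters in which each library had 30 or more cells, the log2 ratio within sub-clusters was 0.88 for *Lgr4*, 1.00 for *Rspo3* and -0.41 for *Rspo1*, each below its value over all fibroblasts.

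*SM22-SmoM2* fibroblasts were next divided by *Ptch1*, whose transcripts are a readout of Hh pathway activity. At least 1 *Ptch1* UMI was found in 639 cells (median 11274 UMIs) and none in 458 cells (median 10218 UMIs). The cells without *Ptch1* UMIs had 16.5 CPM (80 UMIs) of *Gli1*, another Hh target gene, against 6.02 CPM in control fibroblasts. A count of 0 *Ptch1* UMIs thus does not mark a cell without Hh activity. *Lgr4* differed most by this split, at 80.2 CPM (612 UMIs) with and 28.5 CPM (138 UMIs) without *Ptch1*, a log2 ratio of 1.49 (1.22 to 1.77). *Rspo3* had 27.9 and 22.1 CPM, 0.34 (-0.01 to 0.68). *Rspo1* had 11.3 and 8.89 CPM, 0.34 (-0.20 to 0.91). *Lgr5* had 11.9 and 14.1 CPM, -0.24 (-0.71 to 0.24). The intervals of *Rspo3*, *Rspo1* and *Lgr5* thus include 0, that of *Rspo3* only just. Of 13 alternatives with an interval, it lay above 0 in 8 for *Rspo3* and in 2 for *Rspo1*. For *Rspo3* these include at most 5% mitochondrial UMIs, at 0.51 (0.16 to 0.87), and for both ligands at least 2 *Ptch1* UMIs against 0, at 0.43 (0.07 to 0.80) and 0.65 (0.09 to 1.23). With the cells divided by *Gli1* UMIs instead, the ligands had the larger ratios, 0.91 (0.39 to 1.43) for *Rspo1* and 0.70 (0.37 to 1.02) for *Rspo3*, and *Lgr4* had 0.35 (0.13 to 0.57). With each cell thinned to 2500 UMIs and the cells again divided by *Ptch1*, *Rspo1* had 0.75 (-0.10 to 1.58). *Rspo3* had 0.14 (-0.56 to 0.80) and *Lgr4* 0.69 (0.26 to 1.11) at this depth.

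*Rspo2* had all 6 UMIs in cells with *Ptch1* UMIs and *Rspo4* had 6 UMIs in each group. *Lgr6* had 3 UMIs, all in cells with *Ptch1*. Past 2-fold higher was 1 of the 4 members with at least 50 UMIs, *Lgr4*, against 3.45% of 10038 genes, and 0 were past 2-fold lower, against 1.98%. Without dermal papilla-like cells 3 members had at least 50 UMIs. Of these *Lgr4* was the 1 past 2-fold higher, at 1.54 (1.26 to 1.82), against 3.27% of 9921 genes. Past 2-fold lower were 0, against 2.04%. *Rspo1* was not counted, with 15 and 5 UMIs and a log2 ratio of 0.95 (-0.58 to 2.77). *Rspo3* then turned to -0.30 (-0.84 to 0.23).

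The *Lgr4* level stepped up from 28.5 CPM in cells with 0 *Ptch1* UMIs to 67.9 CPM with 1 UMI. It was 79.9 CPM with 2, 85.8 CPM with 3 or 4 and 90.0 CPM with 5 or more *Ptch1* UMIs, and the intervals of the last 3 classes overlapped. Without dermal papilla-like cells the levels were 27.3, 67.9, 80.0, 84.6 and 86.6 CPM. *Rspo3* without these cells had 11.5, 13.9, 6.21, 8.41 and 7.0 CPM in the same order and showed no such step. *Lgr5* had 14.1, 11.5, 17.6, 14.8 and 3.65 CPM, lowest in the 104 cells with the most *Ptch1* UMIs.

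**Figure D4:**
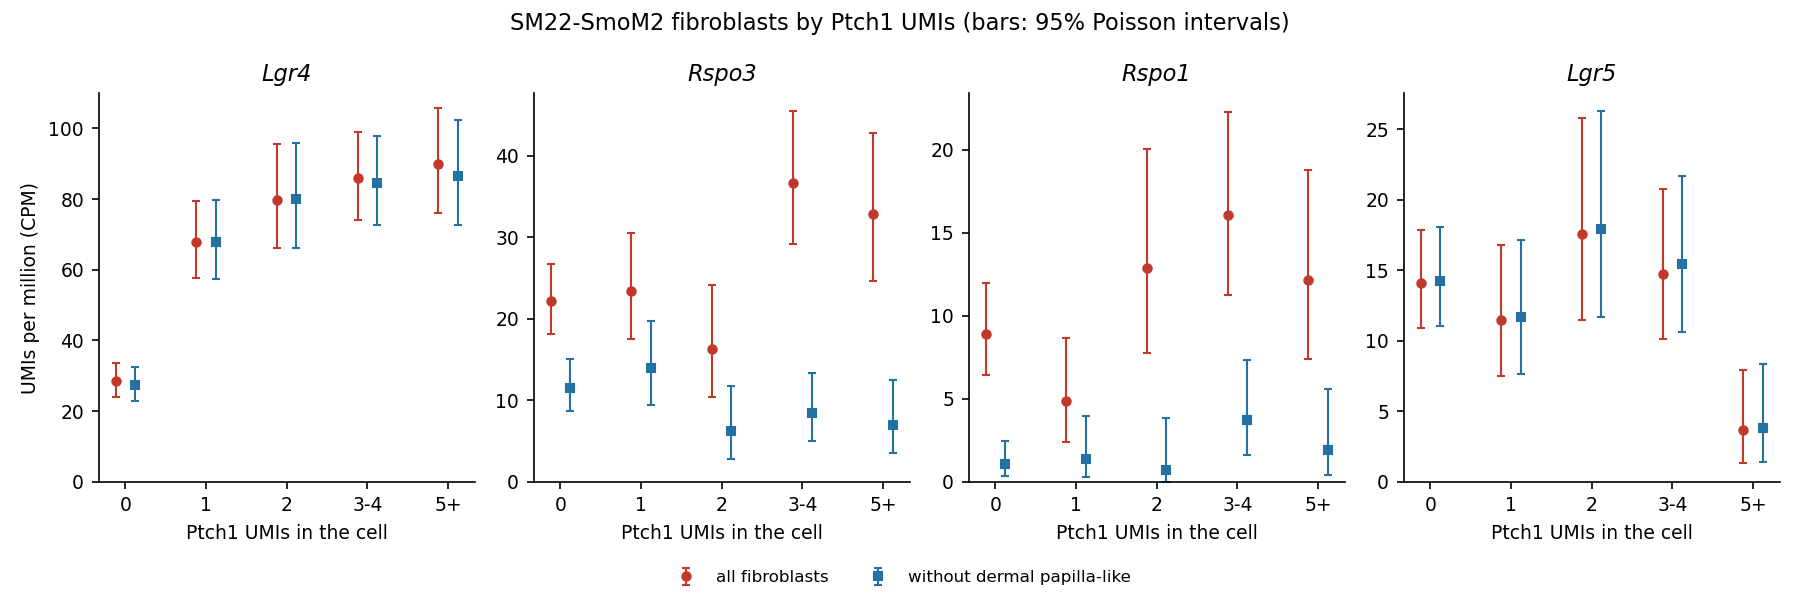
Levels of Lgr4, Rspo3, Rspo1 and Lgr5 in SM22-SmoM2 fibroblasts by the number of Ptch1 UMIs in the cell, for all fibroblasts (red circles) and without dermal papilla-like cells (blue squares), with 95% Poisson intervals on linear axes from 0 that differ between panels. Lgr4 steps from 28.5 to 67.9 CPM between 0 and 1 Ptch1 UMI. Once dermal papilla-like cells are left out, Rspo3 lies between 6.21 and 13.9 CPM and Rspo1 at 3.74 CPM or less in every class.

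Within sub-clusters the *Lgr4* ratio by *Ptch1* ranged widely, and differences between sub-clusters were not tested. The log2 ratio was 2.49 (1.36 to 3.65) in sub-cluster 2, where 18.5% of *SM22-SmoM2* cells had *Ptch1* UMIs, and 1.78 (0.53 to 3.09) in sub-cluster 8, where 22.3% had. In sub-cluster 9, where 74.6% had, it was 2.26 (0.27 to 5.37), on 2 *Lgr4* UMIs without *Ptch1*. In sub-clusters 4, 5, 6 and 7, where 59.2% to 87.9% of cells had *Ptch1* UMIs, it was 0.31, -0.15, 0.36 and 0.52, each with an interval that includes 0. In the dermal papilla-like cells it was -0.02 (-1.19 to 1.32). Combined within sub-clusters, the *Lgr4* log2 ratio was 0.48. Higher levels with *Ptch1* were not particular to *Lgr4* in sub-clusters 2 and 8. In sub-cluster 2 *Rspo3* had 2.29 (0.64 to 3.99) and *Lgr5* 2.10 (0.49 to 3.71). In sub-cluster 8 *Lgr5* had 1.61 (0.24 to 3.03) and *Rspo3* -1.07 (-2.82 to 0.35). The intervals of both include 0 in sub-clusters 4, 5, 6, 7 and 9. In control fibroblasts, 108 cells with *Ptch1* had 23.5 CPM of *Lgr4* and 983 cells without had 17.0 CPM, a log2 ratio of 0.47 (-0.10 to 1.00).

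Genes that act with the R-spondins were taken from lists of 64 genes, of which 47 had at least 50 UMIs in the comparison of libraries. Past 2-fold higher in *SM22-SmoM2* fibroblasts were 6, *Fzd5*, *Gpc3*, *Lef1*, *Nkd1*, *Tcf7* and *Tcf7l2*, and lower were 4, *Gpc4*, *Sdc2*, *Wnt16* and *Wnt2*, against 5.02% and 4.91% of all genes. The median log2 ratio was 0.15, against -0.06 for all genes. Of the E3 ligases, *Znrf3* had 4.18 CPM (control) and 6.42 CPM (*SM22-SmoM2*), a log2 ratio of 0.62 (0.12 to 1.13), and *Rnf43* had 0 UMIs in both. Of 12 Frizzled and Lrp genes, 10 had enough UMIs and 1 was past 2-fold. This was the Wnt receptor gene *Fzd5*, at 1.70 and 6.90 CPM, 2.02 (1.35 to 2.74). The co-receptor genes *Lrp5* and *Lrp6*, at 0.44 and 0.15, had intervals that include 0.

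Of 10 genes for other proteins at the cell surface that bind R-spondins, 9 had enough UMIs. The glypican gene *Gpc3* had 259 and 703 CPM in the same order, 1.44 (1.39 to 1.5). The syndecan gene *Sdc2* had 452 and 133 CPM, -1.76 (-1.84 to -1.68), and the glypican gene *Gpc4* -1.11 (-1.32 to -0.91). The heparan sulfate carriers past 2-fold thus lay in both directions, 1 higher and 2 lower. The median log2 ratio of the 9 genes was -0.83, against -0.06 for all genes.

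Among 19 Wnt ligands, 9 had enough UMIs, and 2 were past 2-fold, both lower. *Wnt2* had 91.4 and 13.9 CPM, -2.72 (-2.96 to -2.49), and *Wnt16* -2.09 (-2.52 to -1.67). For Wnt secretion, *Wls*, which carries Wnt proteins to the surface, had -0.78 (-0.85 to -0.71), and *Porcn*, which acylates them, 0.13 (-0.22 to 0.48). Of 9 β-catenin target and feedback genes, 6 had enough UMIs and 3 were past 2-fold, all higher. The transcription factor gene *Tcf7* had 1.91 and 14.3 CPM, 2.90 (2.31 to 3.54). *Lef1* had 1 and 49 UMIs, 5.80 (3.25 to 11.1), of which 38 UMIs were in dermal papilla-like cells. The feedback gene *Nkd1* had 1.04 (0.83 to 1.25) and *Axin2* 0.41 (0.03 to 0.79). *Tcf7l2*, a transcription factor gene like *Tcf7*, was the 1 of 10 genes of the list named cytoplasmic pathway past 2-fold, at 1.06 (0.92 to 1.21). Without dermal papilla-like cells, 5 target and feedback genes had enough UMIs and only *Tcf7* was past 2-fold higher. *Lef1*, itself a gene of the DP list, then fell below 50 UMIs and was not counted, and *Nkd1* was below 2-fold. The median log2 ratio of the 5 genes was 0.91, against -0.08 for all genes. Of all listed genes 46 then had enough UMIs, with 4 past 2-fold higher and 4 lower, against 4.61% and 5.07% of 11470 genes.

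Divided by *Ptch1*, 42 of the 64 genes had at least 50 UMIs. Past 2-fold higher in cells with *Ptch1* were 8, *Ccnd1*, *Fzd4*, *Fzd7*, *Gpc3*, *Tcf7*, *Wnt10a*, *Wnt5b* and *Wnt6*, and 0 were lower, against 3.45% and 1.98% of all genes. At 1.98%, a count of 0 is near the background. Their median was 0.16, against 0.13 for all genes. *Wnt6* had 11.4 and 2.48 CPM, 2.20 (1.32 to 3.21), and *Gpc3* 896 and 400 CPM, 1.16 (1.09 to 1.24). *Znrf3* had 0.16 (-0.53 to 0.87). Neither *Wnt2* at 0.0046 (-0.45 to 0.47) nor *Sdc2* at -0.31 (-0.45 to -0.16) was past 2-fold in this comparison, although both were lower in the library as a whole.

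**Figure D5:**
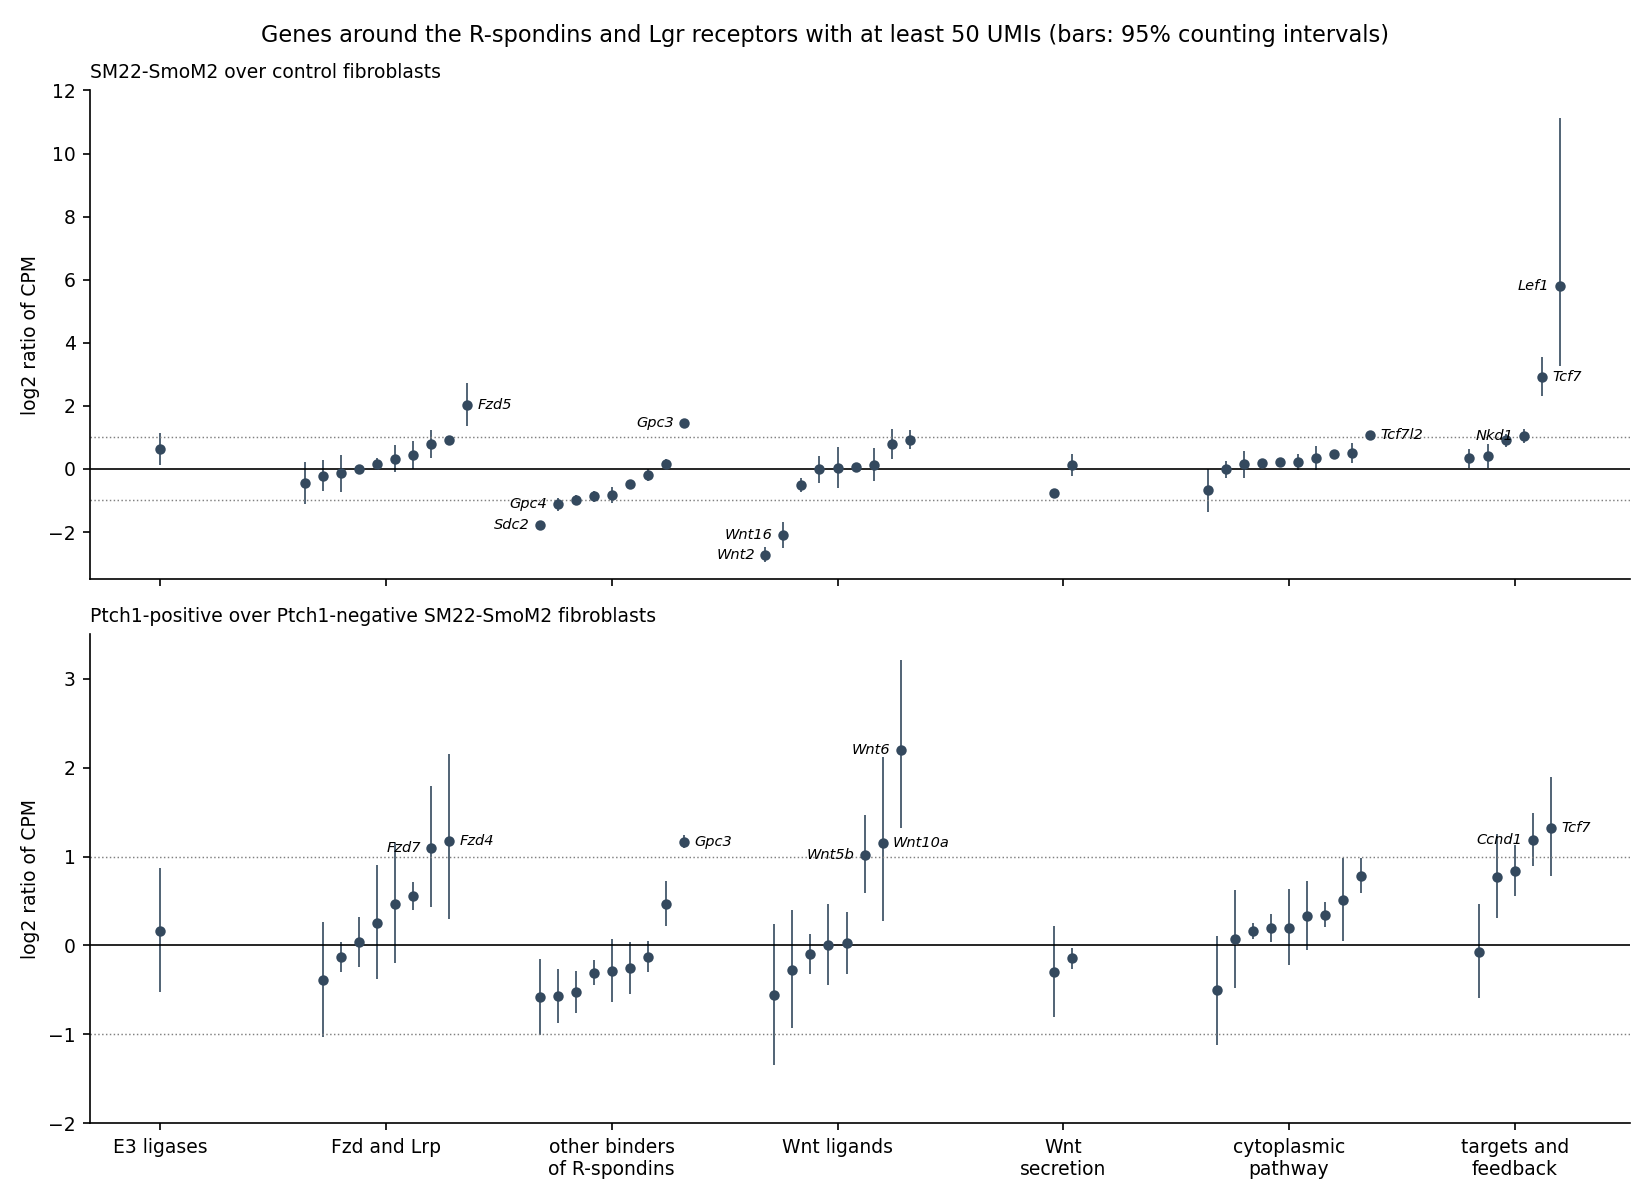
Log2 ratios of CPM for the listed Wnt pathway genes with at least 50 UMIs, by list, in SM22-SmoM2 over control fibroblasts (top) and Ptch1-positive over Ptch1-negative SM22-SmoM2 fibroblasts (bottom), with 95% counting intervals and dotted lines at 2-fold; genes past 2-fold are named. Wnt2, Wnt16 and Sdc2 lie lowest in the top panel, and 0 genes lie past 2-fold lower in the bottom panel.

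In the dermal papilla-like cells the same lists were described against the other *SM22-SmoM2* fibroblasts. These cells were defined by clustering, so the differences are given as levels without a test. Of 42 genes with at least 50 UMIs, 17 were past 2-fold higher and 5 lower, against 21.5% and 10.2% of 10039 genes in this comparison. *Znrf3*, the ligase that R-spondins clear, had 32.4 CPM (10 UMIs) in these cells and 5.76 CPM in the others. Of the 5 β-catenin target and feedback genes with enough UMIs, *Ccnd1* was past 2-fold lower there and 4 were past 2-fold higher. These 4 were *Tcf7* and the feedback genes *Axin2* (38.8 and 9.71 CPM), *Nkd1* (181 and 38.4 CPM) and *Nkd2* (149 and 12.3 CPM). *Notum*, a secreted Wnt inhibitor with too few UMIs for this count, had 64.7 CPM (20 UMIs) against 1.23 CPM. Of 8 Wnt ligands with enough UMIs, 4 were past 2-fold higher and 1, *Wnt9a*, was lower. Among the higher ones *Wnt5a* had 298 and 49.5 CPM and *Wnt10a* 42.1 and 4.11 CPM, while *Wnt2* had 0 UMIs in the dermal papilla-like cells. Among receptors *Fzd3* was past 2-fold higher, while *Fzd7* and *Fzd1*, the latter at 22.6 and 95.9 CPM, were past 2-fold lower. *Lrp6* was at 35.6 and 37.4 CPM. *Ptch1* had 333 and 142 CPM.

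Last, the genes whose levels were most like each member's were found over 24 clusters of at least 30 cells, among 12016 genes, by Pearson's r of log2(CPM + 10). The clusters share 2 libraries and differ in depth, and r is a description. *Rspo1* and *Rspo3* stood far highest in sub-cluster 13, at 353 and 634 CPM, so their r rests largely on that 1 cluster. *Alpl* is also 1 of the 17 DP genes by which sub-cluster 13 was named, so its place here is not separate support for that name. For *Rspo1* the nearest were *Rspo3* (r = 0.91), *Alpl* (0.90), the alkaline phosphatase gene used to stain the DP, *Frem1* (0.89), *Osbpl6* (0.89) and *Prokr2* (0.89). For *Rspo3* they were *Prokr2* (0.96), *Ibsp* (0.94), the agouti gene *a* (0.92), *Hs3st6* (0.92) and *Col23a1* (0.91), of which *Ibsp*, *a* and *Col23a1* are also leading genes of the dermal papilla-like sub-cluster. For *Lgr4* they were *Dcaf4* (0.83), *Crabp2* (0.82), *Proca1* (0.79), *Slc1a1* (0.79) and *Gsta4* (0.79). For *Lgr5* they were *Miat* (0.91), *Igfbp2* (0.90), *Creb3l3* (0.89), *Arxes2* (0.89) and *Omd* (0.88). *Igfbp2* also led sub-cluster 1, and *Crabp2* sub-cluster 4, where *Lgr5* and *Lgr4* stood high.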

How the data were processed

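Single Cell 3ʹ v2 (10x Genomics) libraries of sorted Tomato+ dermal cells were demultiplexed with bcl2fastq and counted with Cell Ranger against mm10/GRCm38 by the authors. The deposited matrices hold raw UMI counts, as whole numbers that were not normalized. Tool versions and the strand setting are not given in the sources used here. Cells with at least 200 genes and at most 10% mitochondrial UMIs were kept (4648 of 4680), with depths of 2538 to 65167 UMIs. No doublet caller was run.

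Counts were log-normalized and clustered by k-means (scanpy 1.11.5, scikit-learn 1.9.0; 20 principal components, 2000 variable genes, 50 starts, K = 20 for all cells and 15 for fibroblasts), leaving out 91 listed genes. A cluster took the name of its best list when 3 markers had 10 CPM and 1.5 times the median of clusters, and dermal papilla-like needed 14 of 17 markers. Sub-clusters with another lineage's markers leading their top 10 genes were left out as mixed. The limits for naming were chosen with the clusters in view, and that of 14 kept out sub-clusters 5, 6 and 7 with 10, 9 and 11 raised markers (176, 169 and 165 *SM22-SmoM2* cells; 9, 3 and 0 control cells). UMIs were summed per class, and ratios of CPM carry exact conditional, levels exact Poisson and shares exact Clopper-Pearson intervals (SciPy 1.17.1). A count of 0 was set at 3 UMIs for a ratio, and no ratio is given where both counts were 3 or fewer. Calculations were tested on simulated data with independent Poisson counts per gene. That does not test the intervals where UMIs gather in a few cells.

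The members and gene lists were chosen with earlier results of these data known. Genes named are the members, Hh genes, listed pathway genes past 2-fold with 50 UMIs or in lists of 4 or fewer, and the 5 genes most like each member with at least 100 UMIs. Other listed genes, sub-cluster leading genes and *Cdh5* were named after their values were seen. Alternatives were other mitochondrial limits, clusterings, thinning, per-cell means, male or female cells (by Y-linked or *Xist* UMIs), a *Gli1* split, and leaving out or dividing by sub-clusters. The last, and leaving out sub-cluster 4 or the cell with the most UMIs, were added after seeing the data.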

Additional observations from a re-analysis of the deposited data

Results flagged for a closer look

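*Lgr4* in muscle cells moved against its direction in fibroblasts. It had 39 UMIs in 28 of 272 control muscle cells and 5 UMIs in 5 of 95 *SM22-SmoM2* muscle cells, 20.8 and 9.07 CPM, a log2 ratio of -1.20 (-2.90 to 0.15). In fibroblasts the log2 ratio was 1.77. The opposite direction of the 2 lineages drew attention to it, the difference between them was not tested, and the interval in muscle cells includes 0.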

How the results depend on the processing

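Of the results recomputed under other settings, 142 moved by less than counting error, 41 moved by more and 2, of a ratio past 2-fold, changed sign. The last were both *Rspo1* in *SM22-SmoM2* over control fibroblasts, with log2 ratios of -0.67 without dermal papilla-like cells and -0.41 within sub-clusters. For the value of -0.67, 1 control cell held 29.7% of the control UMIs. Ratios under 2-fold also changed sign, in 1 alternative for *Lgr5* between libraries and, by *Ptch1*, in 2 each for *Rspo1* and *Rspo3* and 1 for *Lgr5*. All values here are log2 ratios unless stated otherwise. Between libraries, *Lgr4* was 1.36 with at most 5% mitochondrial UMIs, 1.37 with K = 12, 1.32 without sub-cluster 4 and 0.88 within sub-clusters. *Rspo3* was 3.14 in male and 2.05 in female cells, 1.26 without dermal papilla-like cells and 1.00 within sub-clusters. *Rspo1* was 2.68 in male cells, and *Lgr5* 0.011 in male and -0.97 in female cells. Between cells with and without *Ptch1*, *Lgr4* was 1.19 with at most 5% mitochondrial UMIs, 1.20 with K = 12, 1.20 as a mean of per-cell CPM, 1.15 without sub-cluster 4, 0.69 thinned, 0.35 when divided by *Gli1* and 0.48 within sub-clusters. *Rspo1* was 0.95 without dermal papilla-like cells, 0.91 when divided by *Gli1*, -0.85 within sub-clusters and -0.08 as a mean of per-cell CPM, and *Rspo3* -0.30, 0.70 and -0.21 under the first 3 of these. *Lgr5* was -0.90 in female cells and 0.34 within sub-clusters. At 1.5-fold, 12 pathway genes were higher and 9 lower between libraries, and without a minimum of UMIs 2 were lower by *Ptch1*. Percentages of fibroblasts with a UMI rose without thinning to 2.02% and 3.83% for *Rspo1* (control, then *SM22-SmoM2*), 4.67% and 11.8% for *Rspo3*, 18.4% and 35.5% for *Lgr4*, and 11.4% and 9.66% for *Lgr5*. At 1500 UMIs they were 1.37% for *Rspo1* and 2.28% for *Lgr5* in *SM22-SmoM2*, and 3.48% and 9.12% for *Lgr4*. Apart from the construction of each setting, the cause of these shifts was not tested. *Rspo4* had no value when thinned or between libraries in female cells, and *Rspo1*, *Rspo3*, *Rspo4* and *Lgr4* had none by *Ptch1* in female cells, for want of UMIs. No paired analysis was possible because each genotype has 1 library and no test was run.

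Depth limits *Rspo2*, *Rspo4* and *Lgr6* most, with 12 or fewer UMIs in *SM22-SmoM2* fibroblasts. Other clusterings put 46 to 61 *SM22-SmoM2* cells and 0 control cells in the dermal papilla-like class.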

Other observations

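In the control library 11 of 37 fibroblast *Rspo1* UMIs (29.7%) lay in 1 cell of sub-cluster 5, and without that cell the level was 1.84 CPM. Sub-cluster 11, with 60 control cells, had 8 *Rspo1* UMIs in 7 cells, 11.9 CPM, and 28.3% of its control cells had *Ptch1* UMIs.

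Of the 95 *SM22-SmoM2* muscle cells, 2 held all 12 *Rspo3* UMIs of that class. They had 16618 and 20604 UMIs, against a median of 4452, and held UMIs of both *Rgs5* (77 and 72), a mural cell gene, and *Col1a1* (22 and 157), a fibroblast gene, as well as *Alpl* (4 and 3).

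Within the dermal papilla-like cells *Rspo1* was lower where *Ptch1* was found (32 of 47 cells), at 294 CPM (71 UMIs) and 559 CPM (38 UMIs). The log2 ratio was -0.93 (-1.51 to -0.32), with an interval that covers counting error only. All 109 *Rspo1* UMIs lay in 27 of these cells, up to 9 in 1 cell. The interval takes UMIs as independent and is therefore too narrow.

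The 15 control keratinocytes held 9 *Lgr4*, 13 *Lgr5* and 3 *Lgr6* UMIs, and 0 UMIs of any R-spondin. By level, *Lgr5* had 44.3 CPM (23.6 to 75.8) there, in 3 cells, against 16.4 CPM in control fibroblasts. *Lgr6* had 10.2 CPM (2.11 to 29.9), against 3.60 CPM (2.10 to 5.77) in control Schwann cells.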
